A study of Rattus norvegicus with 17 samples.

Results

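The hair matrix regulators described here were 10 genes chosen by name, *Lef1*, *Msx2*, *Hoxc13*, *Foxn1*, *Shh*, *Ptch1*, *Gli1*, *Dlx3*, *Wnt10b* and *Padi3*, of the 17251 genes with a TPM value (a transcript abundance scaled by gene length and to the same total in each library) in the MG of 17 rats. The MG, or Meibomian gland, is the sebaceous gland of the eyelid margin, and its dissected tissue also held hair follicle transcripts. The rats were female, 10 to 12 weeks old, and either WT or P1.hMR, a transgenic line that carries the human mineralocorticoid receptor (MR) under its proximal P1 promoter and expresses it in tissues that use the receptor rather than in 1 chosen cell type. Control WT (4 rats) and Control P1.hMR (5 rats) received no UVB, and UVB WT (3 rats) and UVB P1.hMR (5 rats) received UVB on the eyelids for 5 days. The study's methods state that irradiated eyelids were shaved and do not give this for the controls, so shaving and UVB cannot be told apart for any hair gene. The question was whether these regulators followed the fall of the hair keratins after UVB. All 10 were listed, and 9 of them were among the 13105 genes tested, which reached 1 TPM in 3 or more rats. *Wnt10b* stayed below that limit, and *Shh* passed it only through control rats.

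The hair matrix is the pool of dividing cells at the base of the follicle, from which the hair shaft and the inner root sheath arise. Wnt ligands such as WNT10B act there through LEF1, a factor that binds DNA together with beta-catenin. Sonic hedgehog (SHH) is made by matrix cells and binds the receptor PTCH1, which frees the GLI factors, and both *Ptch1* and *Gli1* are themselves targets of the pathway. HOXC13, FOXN1, DLX3 and MSX2 are transcription factors known to control hair keratin genes or shaft differentiation, and PADI3 is an enzyme that converts arginine to citrulline in proteins such as trichohyalin.

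RefSeq promoters (build GRCr8) were matched for 5 of the 10 genes, *Lef1*, *Msx2*, *Foxn1*, *Ptch1* and *Padi3*, and the 250 bases before the start were searched on both strands. Those of 3 genes are printed 5′ to 3′ on the gene's strand, that of *Ptch1* because it is the pathway's own target and held the GLI motif, and those of *Msx2* and *Padi3* because these genes had the largest differences in log2(TPM + 1) averaged over genotypes (*Hoxc13* had the largest in P1.hMR rats, and *Shh* and *Wnt10b* fell most in linear TPM). Capitals mark a GLI motif (GACCACCCA or its reverse complement) or a CCAAT motif (or its reverse complement).
Ptch1, chr17:1555321-1555570, plus strand: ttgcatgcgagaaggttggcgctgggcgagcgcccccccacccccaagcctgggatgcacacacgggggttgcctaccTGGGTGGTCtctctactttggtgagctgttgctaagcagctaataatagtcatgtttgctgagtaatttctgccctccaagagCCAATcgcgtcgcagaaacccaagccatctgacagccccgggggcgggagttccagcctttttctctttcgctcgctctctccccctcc
Msx2, chr17:11102034-11102283, plus strand: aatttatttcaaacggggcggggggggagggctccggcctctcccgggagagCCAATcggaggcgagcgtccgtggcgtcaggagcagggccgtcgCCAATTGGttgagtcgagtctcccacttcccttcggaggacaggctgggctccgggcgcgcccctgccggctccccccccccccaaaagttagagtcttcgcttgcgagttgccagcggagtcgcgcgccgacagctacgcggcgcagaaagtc
Padi3, chr5:158400194-158400443, minus strand: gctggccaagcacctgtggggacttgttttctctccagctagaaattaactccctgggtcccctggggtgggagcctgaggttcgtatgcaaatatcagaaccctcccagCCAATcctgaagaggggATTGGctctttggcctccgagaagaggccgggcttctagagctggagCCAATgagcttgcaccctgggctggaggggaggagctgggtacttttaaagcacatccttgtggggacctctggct
The *Ptch1* promoter held 1 GLI match, which began 172 bases before the start, and this motif occurred in 0.331% of 27457 promoters of the same length. CCAAT matches stood at 1 place in *Ptch1* and at 3 places each in *Msx2*, where 2 of the 3 overlapped, and *Padi3*, against 34.3% of all promoters with at least 1. None of the 5 promoters held the LEF/TCF motifs CTTTGAA, nor its variant CTTTGAT, nor the form CTTTGTA nor the form CTTTGTT (together in 14.7% of all promoters), the homeodomain cores TAATTA and then TAATTG (11.6%) or TATAAA (13.1%), and the *Lef1* and *Foxn1* windows held no match to any motif searched. A match describes letters in the window and not a bound site.

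The libraries were alike in content, with 12372 to 12737 genes at 1 TPM or more and 804378 to 840817 TPM summed over the listed genes. The study's methods give only a range of mapped reads over the libraries, and TPM keeps no read counts, so the depth of each rat is unknown. Genes of the meibocyte, the lipid-filled cell of the gland, summed to 18400 to 27500 TPM in every rat, so the labelled gland was represented in each library. The hair shaft keratin mean, the average of log2(TPM + 1) over 13 keratins of the shaft, separated a few rats from their group. UVB WT rat 3 stood at 4.43, the highest of the UVB rats, while UVB WT rats 1 and 2 stood at 3.63 and 3.34. The control range was 3.95 to 5.11, and UVB P1.hMR rats 1, 3 and 4, at 4.23, 4.18 and 4.21, also lay inside it. Control P1.hMR rat 3 was the lowest control, at 3.95. Some of the results below are also given without UVB WT rat 3 or Control P1.hMR rat 3.

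In each genotype the same 6 genes fell after UVB, *Lef1*, *Msx2*, *Hoxc13*, *Shh*, *Dlx3* and *Padi3*, out of 9 tested. A gene was called when the adjusted p of limma was under 0.05 and the log2 difference at least 0.5, and this called 3.98% of all tested genes lower in WT rats and 5.71% lower in P1.hMR rats. Averaged over genotypes these 6 were called again, against 4.88% of all tested genes called lower. Without *Shh*, which passed the low-value limit through the controls alone, the count was 5 of 8 in each genotype. The median log2 difference over the 9 members was -0.77 for WT and -0.57 for P1.hMR, and that over all tested genes was 0.01 and -0.02. All 9 members had a lower mean in UVB rats, and none was called higher. The RNA came from whole tissue, so fewer matrix cells and less RNA per matrix cell cannot be told apart.

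Among the Wnt members, *Lef1* was measured at 3.50, 3.58, 3.72 and 2.54 TPM in Control WT rats and at 1.64, 1.16 and 1.61 TPM in UVB WT rats. In the P1.hMR rats it was at 3.11, 3.39, 2.39, 3.20 and 4.03 TPM without UVB and at 1.82, 1.74, 2.85, 2.00 and 1.46 TPM with UVB. The WT groups did not overlap, and in P1.hMR rats 4 of 5 UVB rats lay below every control, UVB P1.hMR rat 3 being the exception. *Lef1* fell by 0.81 ± 0.15 on the log2 scale in WT rats (SE, adjusted p = 0.00202) and by 0.51 ± 0.13 for the P1.hMR genotype (adjusted p = 0.00483), which left mean TPM at 44.1% and 61.2% of control. The P1.hMR difference lay close to the limit of 0.5, and 12 of the 17 fits that each left out 1 rat kept the call. The P1.hMR call was also lost, by the size limit, with quantile normalization (-0.485), median-of-ratios scaling (-0.497) and sample weights (-0.481).

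*Wnt10b*, a Wnt ligand of the early matrix, was at 0.53, 0.59, 0.45 and 0.27 TPM in Control WT and at 0.22, 0.15 and 0.23 TPM in UVB WT rats. It was at 0.39, 0.57, 0.42, 0.44 and 0.88 TPM in Control P1.hMR and at 0.16, 0.09, 0.18, 0.18 and 0.15 TPM in UVB P1.hMR rats. Every UVB rat was below every control rat in both genotypes, and mean TPM was 43.5% of control in WT rats and 28.1% with the transgene. An exact permutation of treatment within each genotype gave a two-sided p of 0.000227 for the averaged difference of -0.34 in log2(TPM + 1), with 8820 arrangements. With no low-value limit and the pseudocount of 1, the log2 difference was -0.28 in WT (adjusted p = 0.0503) and -0.41 for the P1.hMR genotype (adjusted p = 0.000802), and *Wnt10b* was not called in either or averaged, where the size limit of 0.5 was not reached. With no low-value limit and a pseudocount of 0.1, chosen after the data were seen, WT rats gave a log2 difference of -0.87 (adjusted p = 0.0308) and P1.hMR rats of -1.31 (adjusted p = 0.000272), both called.

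In the Hedgehog pathway the ligand gene *Shh* was the lowest of the tested members. It was at 0.66, 1.01, 1.08 and 0.47 TPM in Control WT rats and at 0, 0.19 and 0.24 TPM in UVB WT rats. The P1.hMR controls were at 0.36, 0.91, 1.17, 0.84 and 1.12 TPM and the UVB P1.hMR rats at 0.21, 0.21, 0.36, 0.20 and 0.29 TPM. The WT groups did not overlap, and the P1.hMR groups met at a single value, 0.36 TPM. Mean TPM was 17.8% of control in WT rats, the lowest share among the members there, and 28.9% under P1.hMR, next to *Wnt10b*. The log2 difference was -0.65 ± 0.16 in WT (SE, adjusted p = 0.00919) and -0.57 ± 0.13 for the P1.hMR genotype (adjusted p = 0.00309). These differences understate the change of so low a gene, and with a pseudocount of 0.1 they were -2.02 and -1.41, both still called.

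The receptor gene *Ptch1* changed less and with little spread. It was at 8.54, 8.69, 8.97 and 8.09 TPM in Control WT, at 6.59, 6.05 and 6.47 TPM in UVB WT, at 6.95, 8.18, 7.85, 9.24 and 9.87 TPM in Control P1.hMR and at 6.58, 6.26, 6.66, 6.59 and 5.65 TPM in UVB P1.hMR rats. All 8 UVB rats were below all 9 control rats, so *Ptch1*, *Msx2* and *Wnt10b* were the 3 members with no overlap over both genotypes. Among tested genes this held for 2 of 9 members and for 5.33% of all genes. The *Ptch1* log2 difference was -0.38 ± 0.09 in WT (SE, adjusted p = 0.00821) and -0.35 ± 0.08 for the P1.hMR genotype (adjusted p = 0.00163), which passed the p limit and not the size limit of 0.5.

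*Gli1*, the pathway's own effector and target, was at 3.54, 3.41, 2.55 and 2.5 TPM in Control WT and at 2.60, 1.44 and 2.81 TPM in UVB WT rats. It was at 2.27, 2.38, 3.44, 2.96 and 4.52 TPM in Control P1.hMR and at 1.83, 1.54, 2.78, 2.21 and 1.72 TPM in UVB P1.hMR rats. The groups overlapped in both genotypes. The log2 difference was -0.30 ± 0.19 in WT (SE, adjusted p = 0.285) and -0.44 ± 0.16 for the P1.hMR genotype (adjusted p = 0.0408), and neither was called.

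Of the transcription factors, *Msx2* gave the largest log2 difference in WT rats. It was at 9.95, 8.65, 10.88 and 8.32 TPM in Control WT, at 4.37, 2.98 and 6.51 TPM in UVB WT, at 9.13, 10.60, 7.11, 9.93 and 11.50 TPM in Control P1.hMR and at 5.43, 5.04, 6.73, 5.94 and 4.87 TPM in UVB P1.hMR rats. The highest UVB rat, at 6.73 TPM, was below the lowest control rat, at 7.11 TPM. *Msx2* fell by 0.94 ± 0.18 in WT (SE, adjusted p = 0.00199) and by 0.68 ± 0.15 for the P1.hMR genotype (adjusted p = 0.00175), to 48.9% and 58.0% of control mean TPM. Without UVB WT rat 3 the WT difference was -1.17.

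*Dlx3* was the highest of the 10 genes in every group. It was at 20.67, 20.64, 27.26 and 20.80 TPM in Control WT, at 10.69, 9.27 and 17.77 TPM in UVB WT, at 18.40, 24.62, 17.22, 22.41 and 24.08 TPM in Control P1.hMR and at 13.92, 11.90, 16.95, 14.31 and 12.04 TPM in UVB P1.hMR rats. Neither genotype showed overlap, although UVB WT rat 3 came close to the controls. *Dlx3* fell by 0.82 ± 0.18 in WT (SE, adjusted p = 0.00491) and by 0.59 ± 0.15 for the P1.hMR genotype (adjusted p = 0.00535), and the WT difference was -1.08 without UVB WT rat 3.

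*Hoxc13* varied widely among the controls. It was at 8.45, 5.43, 6.70 and 7.39 TPM in Control WT, at 3.17, 2.86 and 5.17 TPM in UVB WT, at 4.29, 6.59, 3.48, 7.61 and 9.34 TPM in Control P1.hMR and at 3.62, 3.25, 3.84, 2.45 and 2.73 TPM in UVB P1.hMR rats. The WT groups did not overlap, and in P1.hMR rats 2 UVB rats reached above the lowest control, Control P1.hMR rat 3. *Hoxc13* fell by 0.77 ± 0.24 in WT (SE, adjusted p = 0.0326) and by 0.74 ± 0.20 for the P1.hMR genotype (adjusted p = 0.0082). The P1.hMR difference was -0.90 without Control P1.hMR rat 3, and the WT difference was -0.98 without UVB WT rat 3. The WT call was kept in 12 of 17 fits that each left out 1 rat, and was lost without Control WT rat 1, 3 or 4 or UVB WT rat 1 or 2. It was also lost with sample weights (adjusted p = 0.0983) and with the replicate block (adjusted p = 0.0748).

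*Foxn1*, like *Gli1*, overlapped between treatments in both genotypes. It was at 5.58, 3.54, 6.05 and 6.45 TPM in Control WT, at 3.54, 3.15 and 5.86 TPM in UVB WT, at 4.89, 5.79, 3.35, 5.06 and 5.66 TPM in Control P1.hMR and at 5.11, 3.27, 5.73, 5.17 and 4.74 TPM in UVB P1.hMR rats. Most UVB P1.hMR rats lay among their controls, and the mean was 97.1% of control there and 77.4% in WT rats. The log2 difference was -0.32 ± 0.21 in WT (SE, adjusted p = 0.295) and -0.04 ± 0.17 for the P1.hMR genotype (adjusted p = 0.891), so no change was called. Without UVB WT rat 3 the WT difference was -0.54 (adjusted p = 0.092).

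*Padi3*, the differentiation enzyme of the list, was at 9.35, 8.14, 9.17 and 7.23 TPM in Control WT and at 2.99, 2.58 and 8.65 TPM in UVB WT rats. It was at 8.80, 11.22, 6.64, 9.65 and 11.01 TPM in Control P1.hMR and at 5.96, 4.48, 6.53, 5.86 and 3.85 TPM in UVB P1.hMR rats. In WT rats only UVB WT rat 3 overlapped the controls, and the P1.hMR groups did not overlap. *Padi3* fell by 0.87 ± 0.26 in WT (SE, adjusted p = 0.0274) and by 0.72 ± 0.22 for the P1.hMR genotype (adjusted p = 0.0152), and by 1.32 in WT rats without UVB WT rat 3. Its WT call was lost in 4 of 17 fits, each of which left out Control WT rat 1 or 3 or UVB WT rat 1 or 2, and with sample weights (adjusted p = 0.0758), the replicate block (adjusted p = 0.0512) or the WT groups fitted alone (adjusted p = 0.108).

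**Figure D1:**
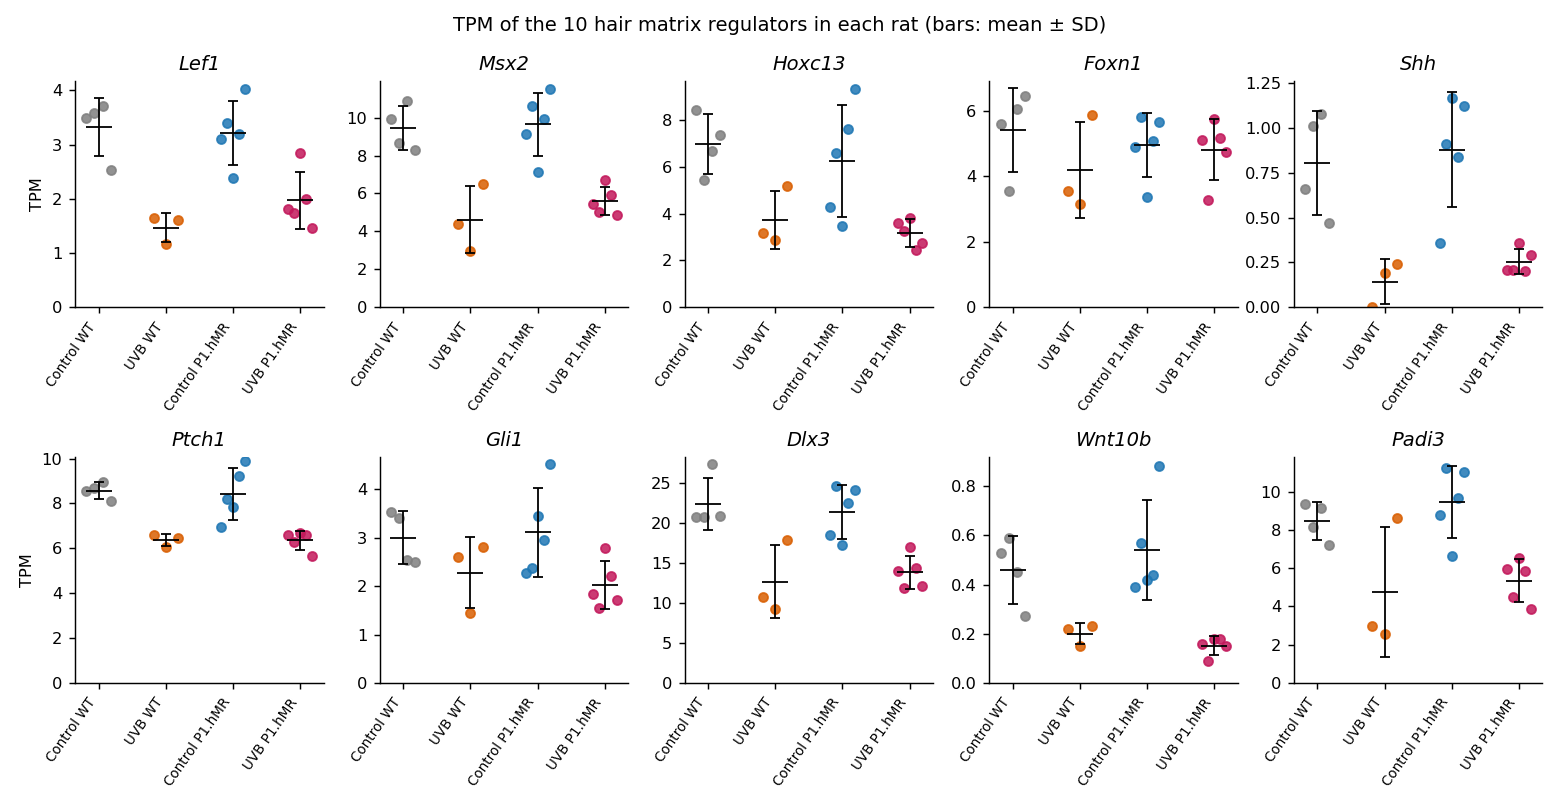
TPM of each of the 10 genes (vertical axis, linear, from 0) in the 4 groups (horizontal axis), with 1 point per rat and a bar for the mean ± SD. *Ptch1*, *Msx2* and *Wnt10b* show all 8 UVB rats below all 9 control rats, *Foxn1* shows overlap in both genotypes, and UVB WT rat 3 is the high point of its group for *Padi3*, at 8.65 TPM.

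Counted by rats, 7 of the 10 members showed no overlap between UVB and control in WT rats and 5 of 10 in P1.hMR rats. Among tested genes this was 6 of 9 in WT rats, against 12.6% of all tested genes with every UVB rat lower, and 4 of 9 in P1.hMR rats, against 14% of all tested genes. Without *Shh*, which the low-value limit admitted through the controls, it was 5 of 8 and 4 of 8. The order of the levels shifted with the unequal changes. In Control WT rats *Dlx3* (22.3 ± 3.28 TPM, mean ± SD) led, followed by *Msx2* (9.45 ± 1.18), *Ptch1* (8.57 ± 0.368) and *Padi3* (8.47 ± 0.985), whose ranges overlapped, and *Hoxc13* (6.99 ± 1.27) stood above *Foxn1* (5.41 ± 1.29) within their spread. In UVB P1.hMR rats *Foxn1* (4.80 ± 0.928 TPM) was above *Hoxc13* (3.18 ± 0.585), and *Ptch1* (6.35 ± 0.42) came next after *Dlx3* (13.8 ± 2.06).

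The hair keratins fell over the same rats. The shaft keratin mean was 4.75 ± 0.311 (SD) in Control WT, 4.63 ± 0.44 in Control P1.hMR, 3.80 ± 0.564 in UVB WT and 4.02 ± 0.25 in UVB P1.hMR rats. All 13 shaft keratins had a lower mean in UVB rats, and 8 were called lower in WT rats and 6 under P1.hMR. The shares of all tested genes called lower were 3.98% and 5.71%. Averaged over genotypes 11 of the 13 were called lower, against 4.88% of all tested genes. *Krt82* (-0.97), *Krt34* (-0.97) and *Krt40* (-0.93), structural keratins of the shaft, had the largest log2 differences averaged over genotypes. All 8 tested genes of the inner root sheath, the layer that moulds the shaft, were called lower in both genotypes, with averaged differences of -1.35 in *Krt72*, -1.20 in *Krt26* and -1.11 in *Tchh*. In linear TPM, the 13 shaft keratins together stood at 55.9% of control and single keratins at 45.1% to 73%, averaged over genotypes. On the same scale *Msx2* stood at 53.5%, *Hoxc13* at 52.1%, *Lef1* at 52.5%, *Padi3* at 56.2% and *Dlx3* at 60.4% of control. *Gli1* stood at 70.3%, *Ptch1* at 74.9% and *Foxn1* at 86.8%, whereas *Wnt10b* stood at 35.2% and *Shh* at 23.6%, both below every shaft keratin on this average. In WT rats alone *Wnt10b*, at 43.5%, was not below the lowest shaft keratin, at 42.8%.

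**Figure D2:**
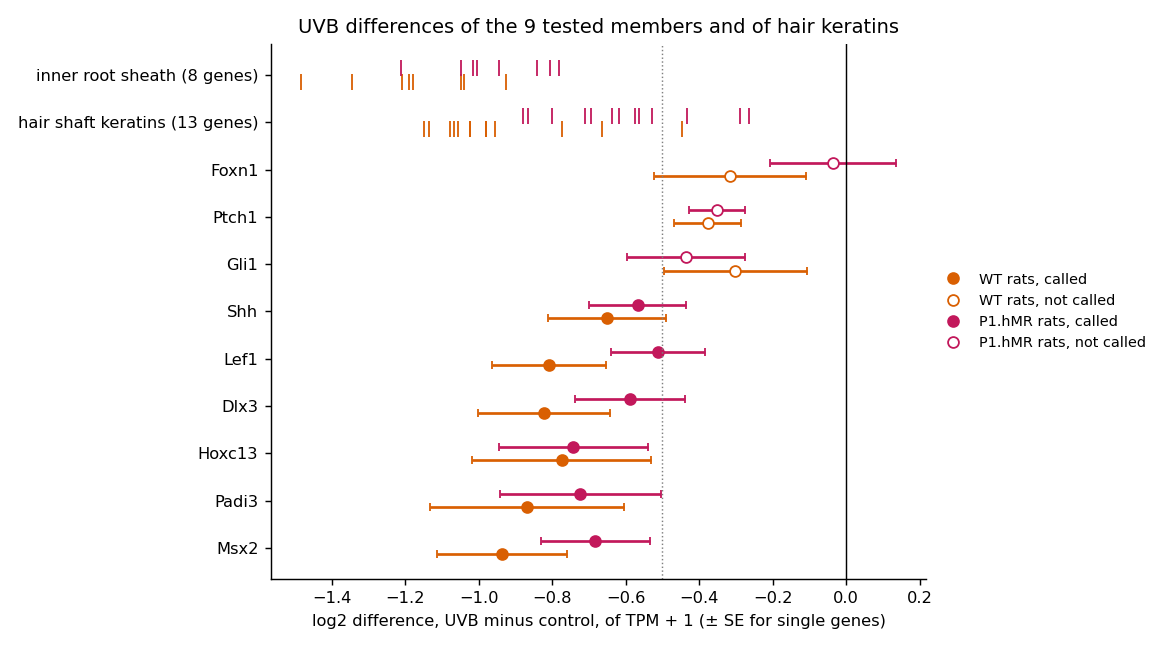
Log2 difference of TPM + 1, UVB minus control (horizontal axis), for the 9 tested members ± SE and, as ticks, for single genes of the hair shaft and inner root sheath lists, in WT and P1.hMR rats. Filled points were called, and the dotted line marks -0.5. The 6 called members fall in the range of the shaft keratins on this scale, as do *Ptch1* and *Gli1*, not called, in P1.hMR rats. *Foxn1* in P1.hMR rats, at -0.04, lies near 0. In linear TPM *Shh* stood at 23.6% of control averaged over genotypes, below every shaft keratin.

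To set each member against the keratins, the shaft keratin mean of each rat was subtracted from the member's log2 value and the UVB difference of the remainder was averaged over genotypes. The mean itself fell, so 86.7% of all tested genes were called higher on this scale. A value near 0 marks a gene that fell as much as the keratins in log2(TPM + 1). The added 1 shrinks falls most in genes of low TPM, so an equal fall in TPM is not implied. *Msx2*, *Padi3*, *Hoxc13*, *Dlx3* and *Lef1* lay within 0.12 of 0. With ordinary least squares, chosen after the data were seen, the 95% interval was -0.28 to 0.22 for *Msx2*, -0.26 to 0.22 for *Padi3*, -0.26 to 0.29 for *Hoxc13*, -0.18 to 0.32 for *Dlx3* and -0.26 to 0.49 for *Lef1*. These intervals leave room for differences of up to 0.49, so equality with the keratins was not shown. With the inner root sheath list in place of the shaft keratins, the same genes lay farther above 0 and were not called. *Msx2* was at 0.26, *Padi3* at 0.27, *Hoxc13* at 0.31, *Dlx3* at 0.36 and *Lef1* at 0.41 there. Relative to the shaft keratins, *Foxn1* was the only member called, at 0.60 ± 0.22 (SE, adjusted p = 0.0069, limma). The ordinary least squares fit, with a smaller SE of 0.0837, gave it a 95% interval of 0.42 to 0.78, and the exact permutation within genotype gave p = 0.000113, the smallest its 8820 arrangements allow. *Ptch1* (0.41, adjusted p = 0.0579) and *Gli1* (0.41, adjusted p = 0.0724) were not called in limma, and their exact permutation p was 0.054 and 0.0837. Their ordinary least squares intervals were 0.03 to 0.80 (adjusted p = 0.0437) and -0.04 to 0.86 (adjusted p = 0.0807). Both were called higher without UVB WT rat 3, *Ptch1* at 0.56 (adjusted p = 0.00622) and *Gli1* at 0.51 (adjusted p = 0.0208), and also with sample weights or the inner root sheath list. *Gli1* was called without Control WT rat 2 or Control P1.hMR rat 3 too (adjusted p = 0.0261 and 0.016). *Shh* was at 0.17 (95% interval -0.32 to 0.66) but turned to -0.85 (adjusted p = 0.0406) with a pseudocount of 0.1, where it was called lower than the keratins. The shared keratin mean enters every gene of this fit, which makes its adjusted p-values less reliable than those of the plain comparisons.

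Rats of the same group also differed in their hair keratin level, which gave another view of the members that did not use the UVB contrast. The slope of a member on the shaft keratin mean within the 4 groups, in log2 units per log2 unit, was called at an adjusted p under 0.05 for 3 of 9 members and for 0.252% of all tested genes. *Padi3* had a slope of 0.81 ± 0.15 (SE, adjusted p = 0.0286), *Foxn1* of 0.69 ± 0.09 (adjusted p = 0.00162) and *Dlx3* of 0.54 ± 0.11 (adjusted p = 0.043). *Msx2* (0.53 ± 0.11, adjusted p = 0.0577) and *Hoxc13* (0.69 ± 0.16, adjusted p = 0.126) had slopes of like size that were not called. *Lef1* (0.24 ± 0.14), *Gli1* (0.15 ± 0.18), *Ptch1* (0.11 ± 0.08) and *Shh* (-0.05 ± 0.15) were not called either. The *Foxn1* call was kept in 17 of 17 fits that each left out 1 rat, with slopes of 0.64 to 0.74, and was lost with the inner root sheath mean in place of the shaft keratins (0.49, adjusted p = 0.715). Its slope was 0.69 in control rats alone and 0.70 in UVB rats alone (adjusted p = 0.175 and 0.462). With that sheath mean *Padi3* (0.87, adjusted p = 4.58e-05) and *Dlx3* (0.57, adjusted p = 0.000717) stayed called. *Msx2* was called there too (0.54, adjusted p = 0.00968). With the shaft keratin mean, the *Padi3* call was kept in 8 and the *Dlx3* call in 4 of the 17 fits that each left out 1 rat, with slopes of 0.54 to 0.92 and 0.42 to 0.60. Both were lost with no low-value limit (adjusted p = 0.0704 and 0.086) and with quantile normalization (adjusted p = 0.0634 and 0.0721), and *Dlx3* also with median-of-ratios scaling (adjusted p = 0.0527) and no variance trend (adjusted p = 0.0559). Without UVB WT rat 3 the slopes were 0.54 (adjusted p = 0.332) and 0.42 (adjusted p = 0.562), without Control P1.hMR rat 3 they were 0.88 (adjusted p = 0.106) and 0.60 (adjusted p = 0.14), and the *Padi3* slope was 0.43 in control rats and 1.27 in UVB rats.

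**Figure D3:**
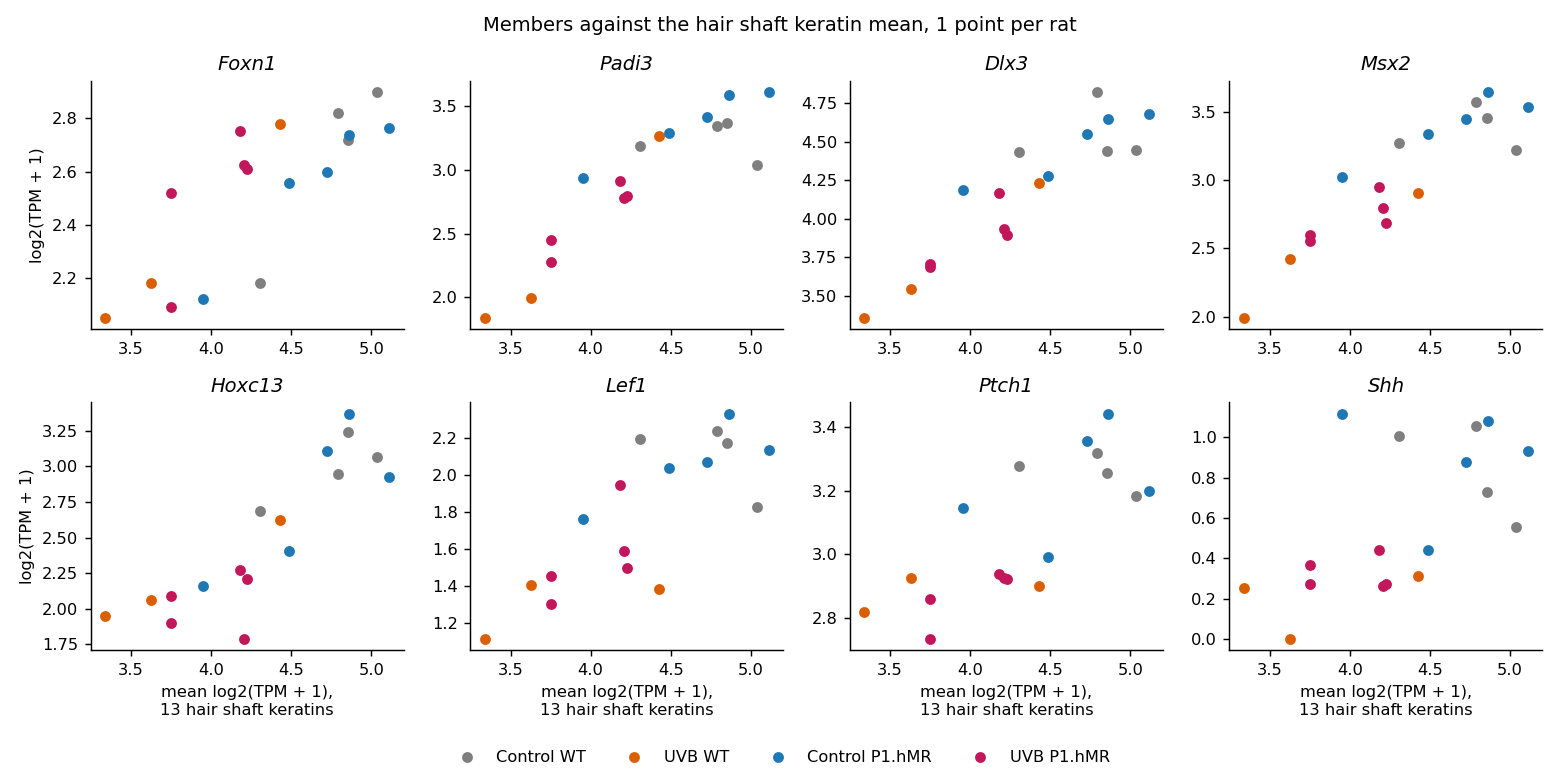
Log2(TPM + 1) of 8 members (vertical axes, each with its own range) against the mean log2(TPM + 1) of 13 hair shaft keratins (horizontal axes), with 1 point per rat coloured by group. *Foxn1* had slopes of 0.69 in the control and 0.70 in the UVB rats, neither called on its own but called over all 4 groups, whereas *Shh* and *Lef1* had no called slope.

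With the shaft keratin mean held fixed in the model, *Shh* was the only member called, lower by 0.65 ± 0.16 (SE, log2 difference -0.65, adjusted p = 0.00797), against 4.01% of all tested genes called lower and 9.11% called in either direction. The low-value limit admitted *Shh* through the controls alone, and without it 0 of 8 members were called. UVB lowered the keratin mean too, so this fit compares rats at an equal keratin level and does not measure a fall beyond the keratins. With a slope of -0.05 on that mean, *Shh* kept about its plain averaged difference of -0.61. Relative to the keratins it was not called (0.17, adjusted p = 0.49, limma). *Lef1* (-0.47, adjusted p = 0.0223), *Msx2* (-0.40, adjusted p = 0.0159) and *Ptch1* (-0.28, adjusted p = 0.0273) passed the p limit and not the size limit, and *Foxn1* did so in the other direction (0.36, adjusted p = 0.0129). *Dlx3* (-0.28, adjusted p = 0.0705), *Gli1* (-0.25, adjusted p = 0.348), *Hoxc13* (-0.22, adjusted p = 0.335) and *Padi3* (-0.17, adjusted p = 0.455) passed neither. *Shh* lost its call without Control P1.hMR rat 3 (-0.53, adjusted p = 0.0723) and with the inner root sheath mean in place of the shaft keratins (-0.45, adjusted p = 0.0984). Without UVB WT rat 3, which had the high keratin mean, 3 members were called.

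**Figure D4:**
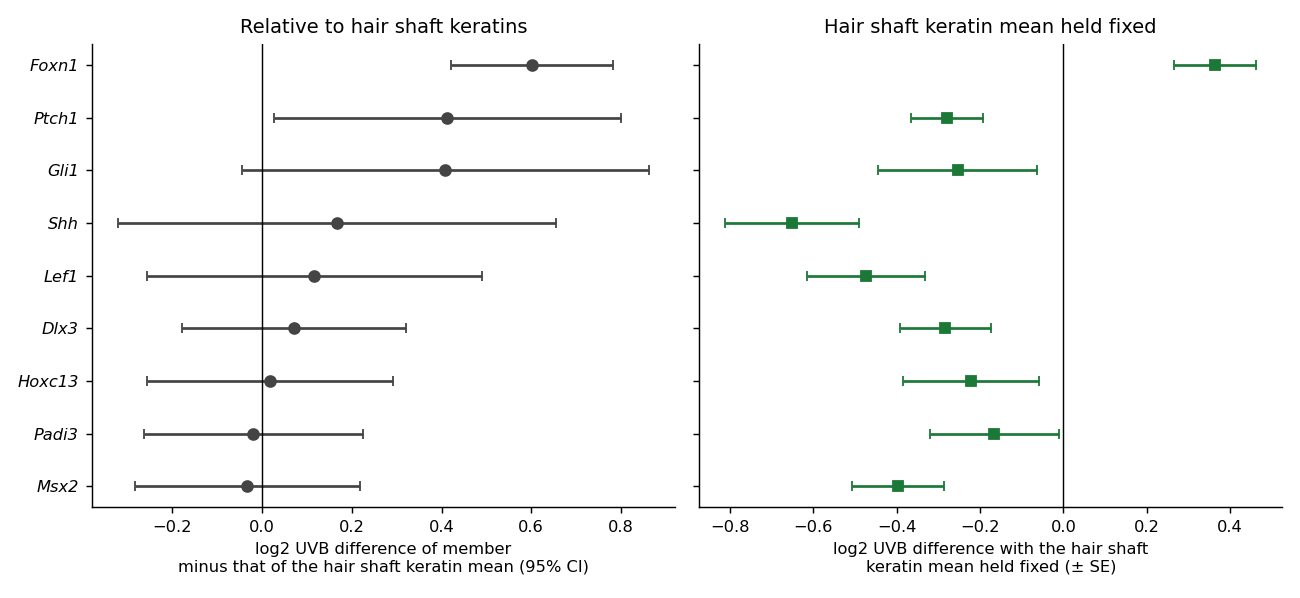
Left, UVB difference of each tested member minus that of the hair shaft keratin mean, in log2 units with the 95% interval of an ordinary least squares fit; right, UVB difference with the keratin mean held fixed, in log2 units ± SE. *Foxn1* stands to the right in both (0.60 and 0.36), *Msx2* and *Padi3* lie near 0 on the left, and *Shh* stands farthest to the left on the right-hand side, at -0.65.

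The likeness between genes was described by the correlation of their deviations from the group means over the 17 rats. *Msx2*, *Dlx3* and *Padi3* varied together (r = 0.93 for *Msx2* and *Dlx3*, 0.91 for *Msx2* and *Padi3*, 0.91 for *Dlx3* and *Padi3*), and the genes most like them were keratins of the inner root sheath or shaft, with *Krt28* (r = 0.92), *Krt35* (0.90) and *Krt25* (0.90) for *Msx2*, *Krt71* (0.92), *Krt73* (0.92) and *Krt25* (0.91) for *Dlx3*, and *Krt71* (0.96), *Krt25* (0.96) and *Krt27* (0.94) for *Padi3*. *Foxn1* was most like genes of the shaft, *Krt31* (r = 0.91), *Dsg4* (0.90), a desmosomal cadherin of the hair, and *Kb23* (0.90). Differences between rats in keratin level enter every one of these values, UVB WT rat 3 included. *Hoxc13* was most like *Bend7* (r = 0.96), *Heatr4* (0.91) and *Pnpla5* (0.91), and *Ptch1* most like *Fam13c* (0.88), *Lgr5* (0.88), a stem cell marker of the Wnt pathway, and *Fbxo17* (0.86). *Lef1* was most like *Slc4a4* (r = 0.84), *AABR07044583.2* (0.82) and *Rnf151* (0.81), *Gli1* most like *Meaf6* (0.88), *Kmt5c* (0.82) and *Tkfc* (0.80), and *Shh* most like *Trim65* (0.82) and *Grb7* (0.80). *Shh* and *Foxn1* showed the weakest relation among pairs of members, at r = -0.09.

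Genotype made no called difference to the members. P1.hMR against WT gave 0 of 9 called under UVB, with log2 differences of -0.16 (*Hoxc13*) to 0.28 (*Padi3*) and a smallest unadjusted p of 0.1, against 0.0229% of all tested genes called. Without UVB the count was also 0 of 9, with differences of -0.19 (*Hoxc13*) to 0.13 (*Padi3*), against 0.00763% of all tested genes. The interaction of genotype and UVB was called for 0 of 9 members and 0% of all tested genes in limma, although 907 genes had an unadjusted p under 0.05. Without UVB WT rat 3 the interaction called 8 genes and without Control WT rat 4 it called 1, none of them a member. In 8 of 9 members the P1.hMR response was the smaller fall, with *Lef1* at 0.30 ± 0.20 (SE, adjusted p = 0.808) and *Foxn1* at 0.28 ± 0.27 (adjusted p = 0.877) as the largest. All 13 shaft keratins had the same sign of interaction, with 0 called, and the groups compared share the same UVB WT rats, of which there were 3.

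Further genes of the same pathways were counted from lists. Of 15 tested further Hedgehog genes, 0 were called in either direction (median log2 difference -0.16, averaged over genotypes), against 9.48% of all tested genes. Of these 15, 12 had a lower and 3 a higher mean. The effector *Gli2* (-0.25 ± 0.07 SE, adjusted p = 0.01) and the co-receptor *Boc* (-0.37 ± 0.06, adjusted p = 6.99e-05) passed the p limit and not the size limit, and the transducer *Smo* was at -0.02 ± 0.05 (adjusted p = 0.745). The ligand gene *Dhh*, not called, had a higher mean after UVB. It went from 0.557 to 0.983 TPM in WT rats and from 0.598 to 1.04 TPM in P1.hMR rats, and passed the low-value limit only through UVB rats. Of 42 tested further Wnt genes, 1 was called higher and 4 lower, together 11.9%, against the same 9.48% of all tested genes, and the 4 lower were 9.52%, against 4.88%. *Porcn*, the enzyme that adds a lipid to Wnt ligands before secretion, was at 32.5 ± 8.02 TPM (SD) in Control WT and 65.9 ± 4.70 TPM in UVB WT rats, and rose by 1.04 ± 0.10 on the log2 scale averaged over genotypes. The ligand gene *Wnt3* fell by 0.85 ± 0.09, from 6.99 ± 1.01 TPM in Control WT to 3.64 ± 0.987 TPM in UVB WT and from 6.50 ± 0.842 to 2.99 ± 0.278 TPM under P1.hMR. Another ligand gene, *Wnt11*, fell by 0.62 ± 0.08, and *Wnt16* and the receptor gene *Fzd10* were also called lower.

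Of 30 tested further genes of follicle differentiation, 1 was called higher and 3 lower, averaged over genotypes. Together these were 13.3%, against 9.48% of all tested genes, and the 3 lower were 10%, against 4.88%. *Tgm3*, a transglutaminase that cross-links proteins of the hair and epidermis, rose by 1.34 ± 0.13 on the log2 scale, from 18.4 ± 2.96 TPM (SD) in Control WT to 47.2 ± 10.6 TPM in UVB WT rats and from 17.7 ± 3.45 to 47.9 ± 12.0 TPM in P1.hMR rats. *Prr9* fell by 1.15 ± 0.21 and *S100a3*, a calcium-binding protein of the hair cuticle, by 0.94 ± 0.18, and *Dsg4* was the other gene called lower. In the dermal papilla, the mesenchyme that signals to the matrix, *Crabp1* fell by 0.93 ± 0.12 and *Prom1* by 0.77 ± 0.11 while *Sox18* rose by 0.62 ± 0.12, of 7 genes tested. These 3 were 42.9% of that list, against 9.48% of all tested genes, and those called lower were 28.6%, against 4.88%. Hair keratin-associated proteins (*Krtap*) were listed for 2 genes, of which 1 was tested. It was called lower averaged over genotypes and in neither genotype alone.

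**Figure D5:**
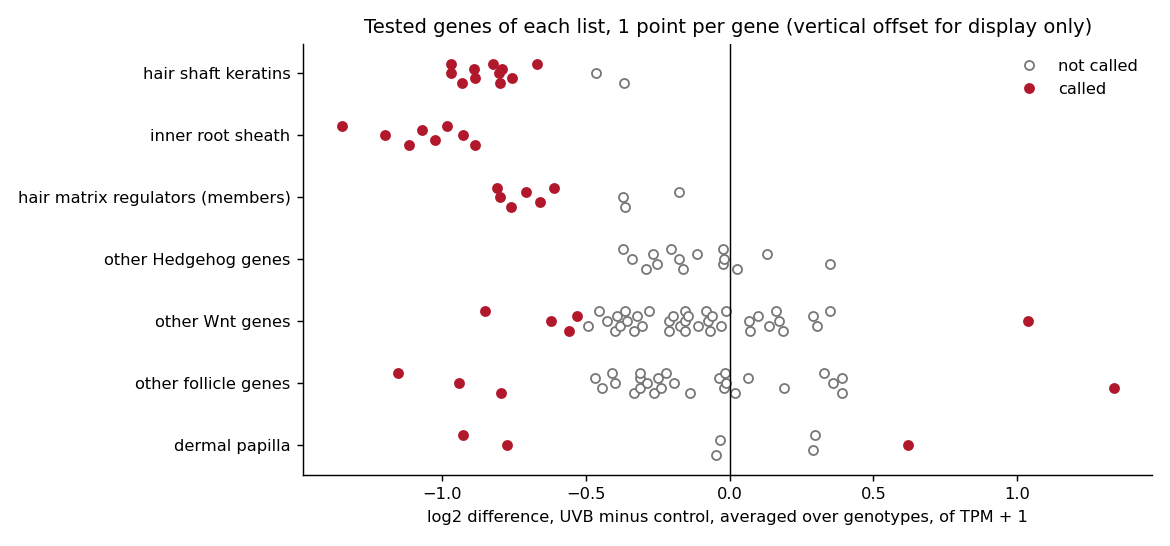
Log2 difference of TPM + 1, UVB minus control, averaged over genotypes (horizontal axis), with 1 point per tested gene of 7 lists and filled points for called genes. The 9 members lie between -0.81 and -0.18 and the 15 other Hedgehog genes, of which 0 were called, between -0.37 and 0.35, and *Tgm3* at 1.34 and *Porcn* at 1.04 stand to the right.

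Genes of other cell types moved in the same rats. Calls are for the UVB difference averaged over genotypes unless a genotype is named. On that average 9.48% of all tested genes were called and 4.88% were called lower. Proliferation genes were called higher in 11 of 17, and their summed level was 176 to 235 TPM in control and 249 to 394 TPM in UVB rats. Melanocyte genes, which include pigment genes of the hair bulb, were called lower in 4 of 8 and higher in 0, with sums of 139 to 251 TPM in control and 119 to 219 TPM in UVB rats. By genotype, 4 of the 8 were called lower in WT rats and 0 in P1.hMR rats. Meibocyte genes were called higher in 2 and lower in 1 of 12 and summed to 21300 to 27500 TPM in control and 18400 to 21600 TPM in UVB rats. Epidermal genes were called lower in 4 of 7, with sums of 2020 to 2940 TPM and 2020 to 3840 TPM, T cell genes higher in 2 of 4, with 5.88 to 12.2 TPM and 7.24 to 16.1 TPM, conjunctival genes lower in 1 of 4, with 3960 to 5400 TPM and 4870 to 6900 TPM, and skeletal muscle genes lower in 2 of 9, with 2400 to 4270 TPM and 1860 to 3790 TPM. Conjunctival genes were called lower in 0 of 4 in WT and in 2 of 4 in P1.hMR rats, and epidermal genes in 2 of 7 and 4 of 7. No gene of these lists that was in the table was at 0 in every rat. The part of these shifts in the members' differences was not tested.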

How the data were processed

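RNA from the MG of 17 rats was sequenced and deposited as 1 table. The authors aligned the reads to rn7 and quantified genes with STAR and RSEM according to the study's methods, while the submitters' processing notes name FastQC, Trimmomatic, DRAGEN and Picard, and the deposited values are TPM with a decimal comma and no other stated normalization. TPM keeps no read counts and the methods give mapped reads only as a range. The depth of each rat is therefore unknown, and precision comes from the spread between rats.

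Here log2(TPM + 1) was fitted in R 4.3.3 with limma 3.58.1 as 1 model holding the 4 group means, with a variance trend, over the 13105 genes that reached 1 TPM in 3 or more rats. The study's own test, on read counts, could not be run on TPM. Calls needed a Benjamini-Hochberg adjusted p under 0.05 and a log2 difference of at least 0.5, and for slopes the p alone. Tests were two-sided, fold changes are on the log2(TPM + 1) scale, and the model was tested on simulated data. Python 3.11.15 made the exact permutations and figures. Members and gene lists were chosen with earlier results of these data known. All 10 members are named, and from each list of hair, pathway or papilla genes the 3 called genes with the largest averaged UVB difference, and for each tested member the 3 genes most correlated with it (1 such gene is not reported here). *Boc*, *Gli2*, *Smo*, *Dhh*, *Wnt16*, *Fzd10* and *Dsg4* were named after their values were seen. WT rats were littermates of the transgenic ones by the study's methods, but the labels do not say which rats shared a litter, so p-values measure the spread between these rats. Alternatives covered the pseudocount, the low-value limit, scaling, the variance model, weights, a replicate block, the thresholds, the keratin list and each rat left out. Promoters came from RefSeq GRCr8, another build than rn7.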

Additional observations from a re-analysis of the deposited data

Results flagged for a closer look

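Within the groups of 4 or 5 rats, 36 sets of values were tested for a rat far from its group by Dixon's criterion, of which chance flags about 1 in 20. *Lef1* in Control WT rat 4 stood apart at 2.54 TPM, below the other 3 rats of that group, and *Dlx3* in Control WT rat 3 stood apart at 27.26 TPM, above the other 3. The *Lef1* and *Dlx3* calls in WT rats were kept in all 17 fits that each left out 1 rat, these rats included. UVB WT rat 3 could not be tested in this way, since its group holds 3 rats.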

How the results depend on the processing

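The count of members called lower after UVB stayed at 6 averaged over genotypes whichever rat was left out, and ranged from 4 to 6 in WT and 5 to 7 in P1.hMR rats. The WT count was 4 without Control WT rat 1 or 3 or UVB WT rat 1 or 2. Genotype and its interaction with UVB called 0 members under every alternative run. With a log2 difference of at least 1 required, 0 members were called for UVB in WT, in P1.hMR, averaged, relative to the keratins or with them held fixed. With a mean of at least 5 TPM, which left 5 members tested, the relative and held-fixed counts were 0. That limit removed *Foxn1* and *Shh*, the members called there in the fit reported above, so their calls were not tested under it. Same-numbered rats did not deviate together (r of -0.187 to 0.235 over 22 pairs), so the numbers were not taken to pair rats, and with the replicate block the WT count was 4 and no other count of members changed. The WT count was also 4 with sample weights and 5 with the WT groups fitted alone.

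Relative to the shaft keratins, the count of 1 became 2 with a pseudocount of 0.1, 3 with sample weights, 3 with the inner root sheath list, and 1 to 3 with a rat left out (2 without Control WT rat 2 or Control P1.hMR rat 3, 3 without UVB WT rat 3). Held fixed, the count of 1 became 5 with no size limit, 2 with a pseudocount of 0.1, 0 with the inner root sheath list, and 1 to 3 with a rat left out (3 without UVB WT rat 3, 2 without UVB P1.hMR rat 3). The slope count of 3 became 1 with no low-value limit, 1 with quantile normalization, 0 in control rats, 1 in UVB rats, and 1 to 4 with a rat left out, where it was 1 without Control P1.hMR rat 2, 3 or 5, UVB WT rat 2 or 3 or UVB P1.hMR rat 1, 2, 3 or 5, and 2 without Control P1.hMR rat 1 or 4 or UVB WT rat 1. With the inner root sheath list the slope of *Foxn1* lost its call and that of *Msx2* gained a call. The causes were not tested.

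Signs turned for values that were not called in the fit reported above. *Foxn1* after UVB in P1.hMR rats was 0.0354 with sample weights and -0.1437 to 0.0715 with a rat left out. Relative to the keratins, *Shh* was -0.85 and *Lef1* -0.0461 with a pseudocount of 0.1, *Hoxc13* was -0.0354 with that pseudocount, -0.0007 with sample weights and -0.0305 to 0.0751 with a rat left out, *Msx2* was 0.26 with the inner root sheath list and -0.1074 to 0.0225 with a rat left out, and *Padi3* was 0.27 and -0.1003 to 0.0465. *Padi3* held fixed was 0.13 with the inner root sheath list. The slope of *Gli1* was -0.17 in control rats, and that of *Shh* 0.0445 with a pseudocount of 0.1, 0.15 with the inner root sheath list, 0.0891 in UVB rats and -0.1627 to 0.0623 with a rat left out.

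Over all genes, 1036 were called for UVB in WT, 1410 in P1.hMR and 1243 averaged. These were 2820, 5123 and 6192 with no size limit, 219, 300 and 240 with a limit of 1, 690, 882 and 790 with a mean of at least 5 TPM, and 2114 and 2101 in P1.hMR and averaged with a pseudocount of 0.1 and no low-value limit. Slopes called 33 genes, and 17 to 44 with a rat left out, 20 with the inner root sheath list, 11 in control rats and 6 in UVB rats. Held fixed, 1194 became 3397 with no size limit, 263 with a limit of 1 and 770 with a mean of at least 5 TPM, and relative to the keratins 11407 became 2031 with a limit of 1. P1.hMR against WT called 3 genes under UVB (1 to 52 with a rat left out) and 1 without UVB (1 to 6), and the interaction 0 (0 to 8, with 8 without UVB WT rat 3).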
